A study of Homo sapiens with 52 samples.

Results

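The kinesin genes of WI-38 cells, a normal human lung fibroblast line, were followed across 4 routes into senescence. Members were all genes with a symbol of the form KIF plus a number, or KIFC1 to KIFC3. Of 59408 genes in the files 42 matched, and 33 of these had a deposited mean of at least 10 normalized counts for RS or for DDR-Sen day 0. The 33 measured genes comprised 11 mitotic kinesins and 22 others, and 32 of them passed the filter of the test, a mean of 10 normalized counts over all groups. Untreated cells were young cultures at population doubling level (PDL) 32 to 46. RS, replicative senescence, was reached by serial passage to about PDL 52. Plasma membrane damage-dependent senescence (PMD-Sen) was set off in young cells by 0.009% SDS, a detergent. Ca2+-Sen was set off by 75 mM KCl, and DDR-Sen, which depends on the DNA damage response, by 250 nM doxorubicin (DXR). Each agent was left for 24 h, and cells were taken when it was removed (day 0), daily up to day 4, and on days 6, 8 and, last, 16. The 26 groups had 2 libraries each. All groups are the same cell line, no sorting of cells is described, and the young group alone served as control for every treated day and for RS.

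Kinesins are motor proteins that hydrolyse ATP to walk along microtubules or to take their ends apart. One set is made for cell division: its members push spindle poles apart, align chromosomes and build the central spindle and midbody on which cytokinesis depends. A second set carries organelles, vesicles and RNA in interphase, mostly away from the cell centre, and is joined to its cargo by light chains and adaptors. Others act in the primary cilium or in signalling. Genes of the mitotic set are transcribed in G2 and M phase, and many of their promoters hold a CHR element (cell cycle genes homology region, TTTGAA or TTCGAA), often next to CCAAT boxes, through which the MuvB complexes act.

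Most promoters of the mitotic members held those letters. In RefSeq windows on GRCh38.p14 that run from 250 bases before the start to 50 after it, read on both strands, CHR letters lay in 9 of 11 mitotic members (81.8%), in 2 of the 15 other measured members that have a window (13.3%), and in 19.5% of all genes in that reference. CCAAT lay in 9 of 11, in 4 of 15 and in 39.7%. Both motifs together lay in 8 of 11, in 2 of 15 and in 7.85%. The E2F core, searched as TTTGGCG and also as TTTCGCG and as TTTCCCG, lay in 2 of 11, in 3 of 15 and in 8.67%. KIF20A and KIF2C were the mitotic members without CHR letters. The 2 other measured members with CHR letters were KIF5B and KIF24, and both also held CCAAT. KIF24 was itself called lower than in untreated cells in 22 of 25 groups. The 80 bases before the start are shown for 8 mitotic members, of which 6 hold CHR letters and 2 do not, and for KIF1C and KIF5B, the most abundant transport members. They are written 5′ to 3′ on the strand of the gene, and capitals mark CHR, CCAAT and E2F letters found on either strand. KIF22 has more than 1 annotated start, and the first is shown. KIF5B also holds CHR letters 140 bases before the start, outside the stretch shown. A match is a description of the letters and not a binding site.
KIF4A (chrX:70290024-70290103, plus strand): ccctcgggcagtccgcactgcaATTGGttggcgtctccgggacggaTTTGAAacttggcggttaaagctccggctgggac
KIF11 (chr10:92593050-92593129, plus strand): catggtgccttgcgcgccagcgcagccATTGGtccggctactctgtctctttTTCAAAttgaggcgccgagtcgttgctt
KIF18A (chr11:28108157-28108236, minus strand): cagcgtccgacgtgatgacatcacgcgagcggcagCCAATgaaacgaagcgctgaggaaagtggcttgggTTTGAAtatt
KIF23 (chr15:69414269-69414348, plus strand): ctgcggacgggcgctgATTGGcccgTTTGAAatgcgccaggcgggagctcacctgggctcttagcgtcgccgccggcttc
KIF22 (chr16:29790671-29790750, plus strand): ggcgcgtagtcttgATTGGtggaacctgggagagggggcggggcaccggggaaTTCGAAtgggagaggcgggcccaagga
KIF15 (chr3:44761714-44761793, plus strand): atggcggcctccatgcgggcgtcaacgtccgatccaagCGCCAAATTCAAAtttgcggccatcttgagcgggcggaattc
KIF20A (chr5:138179032-138179111, plus strand): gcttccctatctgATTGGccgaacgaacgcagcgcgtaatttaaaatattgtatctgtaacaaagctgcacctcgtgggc
KIF2C (chr1:44739757-44739836, plus strand): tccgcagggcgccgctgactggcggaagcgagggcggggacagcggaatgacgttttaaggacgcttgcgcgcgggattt
KIF1C (chr17:4997870-4997949, plus strand): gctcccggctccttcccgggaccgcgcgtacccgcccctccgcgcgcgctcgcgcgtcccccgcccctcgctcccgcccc
KIF5B (chr10:32056426-32056505, minus strand): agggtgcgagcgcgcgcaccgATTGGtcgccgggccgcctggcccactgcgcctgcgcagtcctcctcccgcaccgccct
In KIF15 the capitals are an E2F match and a CHR match that follow each other without a gap.

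Reads of each gene in each library were recovered from the deposited means. Libraries are called A (the deeper) and B within a group, since they could not be tied to the replicate numbers of the labels. Depth was 15.3 to 55.5 M reads (M, 10 to the 6th), and the untreated libraries held 19 and 15.3 M. The 7 fibroblast markers summed to 283545 normalized counts or more in the mean of every group, and the 6 of other cell types to 77 to 417. Of these, also as group means, the endothelial gene CDH5 and the epithelial gene KRT5 were at or near 0. SNAP25 ranged from 29.6 to 411 and PECAM1, another endothelial gene, from 2.64 to 141. PTPRC, of blood cells, ranged from 0 to 26.6 and EPCAM, of epithelia, from 0.957 to 22.5. PECAM1 was called higher than in untreated cells in 10 of 25 groups (by 2.07 on the log2 scale on DDR-Sen day 0), and its part in the kinesin values was not tested. In 5 groups, picked without a cutoff, the libraries stood apart in the mitotic members. The sum of these members was 2791 in A and 1475 in B of PMD-Sen day 16, 4842 and 2668 in Ca2+-Sen day 6, 1540 and 1035 in RS, and 1917 and 3043 in PMD-Sen day 0. On DDR-Sen day 16 the sums were closer, at 1421 and 1202, but 9 of 11 members were higher in A, among them KIF15 (11.7 and 2.13), KIF20A (95.9 and 38.3) and KIF4A (50.2 and 21.3). Some other groups were no closer in their sums than this last one. On PMD-Sen day 6 the sums were 3412 and 2726, with 9 of 11 members higher in A. On PMD-Sen day 1 (7724 and 9429) and Ca2+-Sen day 0 (3281 and 4118) 0 of 11 were higher in A. The median ratio of the larger to the smaller sum over all groups was 1.15, and the untreated sums were 11846 and 11911. The RS libraries also differed most over all genes, with a standard deviation (SD) of 0.59 on the log2 scale.

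**Figure D1:**
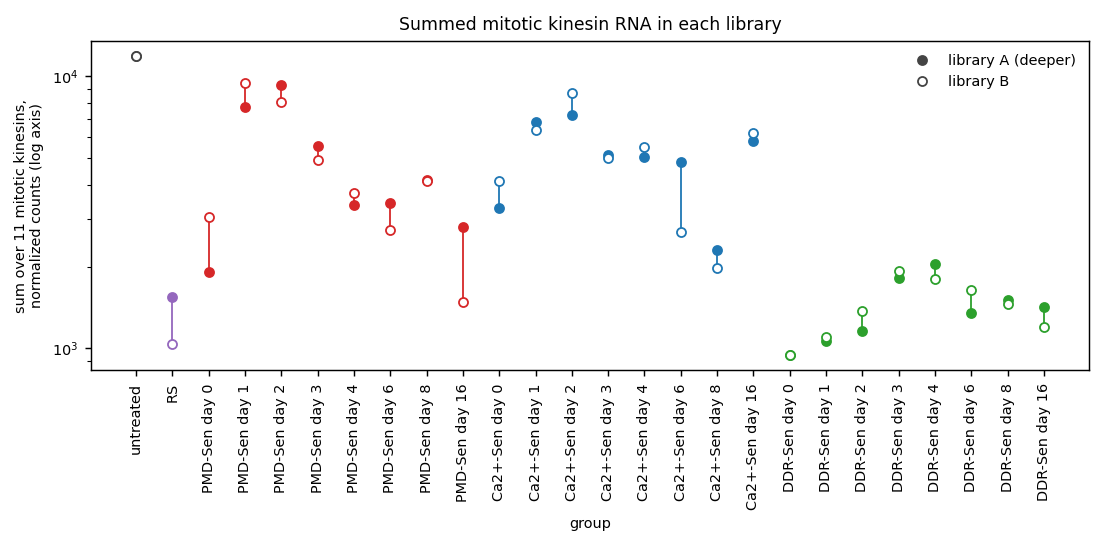
Sum of the normalized counts of the 11 mitotic kinesins in each library (log axis), by group, with library A filled, library B open and a line joining the libraries of a group. Every treated or RS library lies below both untreated libraries (11846 and 11911), the DDR-Sen libraries stay low on all days, and the PMD-Sen and Ca2+-Sen libraries are higher on days 1 and 2 than on day 0.

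In untreated cells the transport members KIF5B, the ubiquitous heavy chain of conventional kinesin, and KIF1C, a motor of vesicles and integrins, led the family per kilobase of exon. KIF5B was at 2005 and 2294 normalized counts per kilobase in libraries A and B, and KIF1C at 1769 and 1956. The next member, KIF3B of the ciliary motor kinesin II, was at 526 and 592. KIF20A was the most abundant mitotic member, at 456 and 451, followed by KIF11 at 347 and 325, KIF23 at 282 and 306 and KIF2C at 300 and 283. KIF15, a spindle motor that can stand in for KIF11, was the scarcest mitotic member, at 13.6 and 18.9. Neighbours in this order were often closer than their libraries, as in KIF23 and KIF2C, or in KIF22 (271 and 239) and KIF7 (260 and 268). KIF1A, a motor of neuronal vesicles, had no read in either untreated library. The unmeasured members were KIF2B, KIF4B, KIF5C, KIF6, KIF12, KIF19, KIF25, KIF26A and KIFC1. Their higher deposited mean was at most 5.33, in KIF5C, and KIF1A, just inside the limit, was at 15.9. KIF4B is a near-identical copy of KIF4A, so reads of the pair may be split between them.

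Differences below are on the scale of log2(normalized count + 2), which understates the change of scarce genes, and were tested with limma over 15606 genes. The adjusted p is that of Benjamini and Hochberg over all these genes within a comparison. A member is called lower or higher where it is under 0.05. The RNA came from whole cultures, so fewer dividing cells and less RNA per cell cannot be told apart. The 25 comparisons with untreated cells share its 2 libraries, whose error enters all of them.

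All 11 mitotic kinesins fell in RS, where 24.1% of all genes tested were called lower, with a median difference of -3.28 against 0.00 over all genes. KIF18B, which shortens astral microtubules, was at 658 and 548 normalized counts in the untreated libraries and at 14.4 and 6.21 in RS, a difference of -5.70 (SE 0.34, adjusted p = 1.39e-14). KIF20A, the cytokinesis motor that takes the chromosomal passenger complex to the central spindle, went from 1804 and 1786 to 80.8 and 15.2 (-5.57, SE 0.50, adjusted p = 8.09e-11). KIF2C, which depolymerizes microtubules at centromeres, went from 1095 and 1032 to 49.2 and 19.3 (-5.01, SE 0.38). These libraries did not overlap between the groups, but library A of RS kept more of each of the 3 RNAs than library B. KIF4A, a chromokinesin of the central spindle (-4.80), and KIF14, a cytokinesis motor (-4.74), fell nearly as far. The other 6 fell less, from -3.28 in KIF20B to -1.90 in KIF22. KIF23, the motor of centralspindlin, was at 1854 and 2010 in untreated cells and at 333 and 358 in RS (-2.48, SE 0.19, adjusted p = 4.13e-12), and KIF22, a chromokinesin that pushes chromosome arms, was at 1167 and 1032 and then at 356 and 241 (SE 0.19, adjusted p = 9.56e-10). KIF23 was the only mitotic member not higher in library A of RS. With library A or library B of RS left out, 11 were still called lower.

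In PMD-Sen the set was low when SDS was removed and higher 1 day later, though still below the untreated level. On PMD-Sen day 0 all 11 mitotic members fell (29.1% of all genes were lower), by a median of -2.27. KIF18B was at 28.5 and 39.5 (-4.08, SE 0.34) and KIF20A at 90.4 and 187 (-3.77, SE 0.50), while KIF18A, which damps chromosome movements in metaphase, was at 214 and 293 after 562 and 734 in untreated cells (-1.35, SE 0.28, adjusted p = 0.000153). All 11 were higher on day 1 than on day 0 (30.7% of all genes were), by a median of 1.75, and KIF18B gained most, to 380 and 445 (3.54, SE 0.34, adjusted p = 1.47e-10). Against untreated cells the median difference was then -0.42, and 1 of 11 was called lower (14.3% of all genes). That was KIF20A, at 531 and 710 (-1.54, SE 0.50, adjusted p = 0.0173), and whether it differed from the other members was not tested. The call was lost without either untreated library (adjusted p = 0.0736 without A and 0.0655 without B) and without library A of day 1 (0.114). On day 2 limma called none lower, against 7.73% of all genes, and the median difference was -0.51. At an unadjusted p under 0.05, 3 were lower, and 4 were called with voom weights. With only the compared libraries in the fit, 5 were called lower on day 1 and 7 on day 2.

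From day 3 most mitotic members of PMD-Sen were again called lower than in untreated cells. Of 11, 10 were lower on day 3 (9.69% of all genes), 10 on day 4 (11.6%), 11 on day 6 (14.8%), 10 on day 8 (13.2%) and 11 on day 16 (22.9%), and KIF15 was the member not called on days 3, 4 and 8. The median difference was -1.26 on day 3, -1.70 on day 4, -2.00 on day 6, -1.50 on day 8 and -2.85 on day 16. KIF11, the motor that slides spindle poles apart, was at 693 and 735 on day 3, 468 and 354 on day 6, 544 and 611 on day 8 and 383 and 204 on day 16, after 1686 and 1580 in untreated cells. Its difference on day 16 was -2.54 (SE 0.22, adjusted p = 1.81e-10). KIF14 ended lowest relative to untreated cells, at 93.9 and 19.4 after 632 and 626 (-3.80, SE 0.47, adjusted p = 1.08e-07). Library A of day 16 was higher than B in all 11 members, and with either of them left out 11 were still called. Day 16 lay below day 1 in all 11 (28.8% of all genes) and below day 8 in 7 (7.27%).

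**Figure D2:**
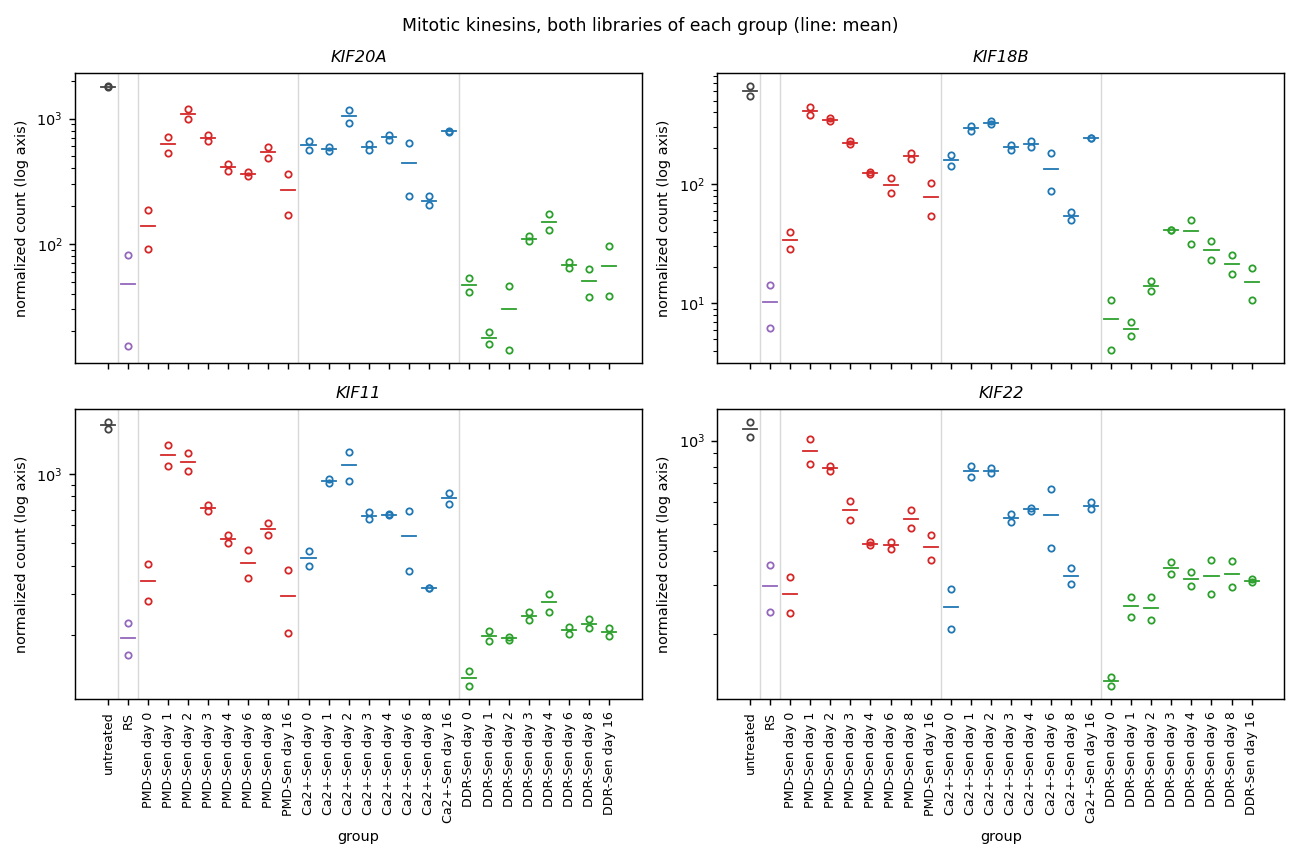
Normalized counts (log axis) of 4 mitotic kinesins in both libraries (circles) of each group, with the mean as a line. KIF20A and KIF18B spread over a wider range than KIF11 and KIF22, from 1804 and 658 in untreated library A to 15.9 and 5.31 in library A of DDR-Sen day 1.

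After KCl the set fell, came back in part, fell again to day 8 and was higher on day 16. On Ca2+-Sen day 0 all 11 were lower than in untreated cells (32.1% of all genes), by a median of -1.63. The day 0 order differed from that of PMD-Sen: KIF2C (-2.26, SE 0.38), KIF15 (-2.15, SE 0.66) and KIF22 (-2.14, SE 0.19) had the largest differences, and KIF20A, at 559 and 660, one of the smaller ones (-1.56, SE 0.50, adjusted p = 0.00766). Without library A of day 0 the calls of KIF15 (adjusted p = 0.119) and KIF20A (0.0518) were lost, and without untreated library B that of KIF15 (0.0513). Between days 0 and 1, 6 members rose (31.4% of all genes). On day 1, 5 were lower than in untreated cells (9.31%), namely KIF11, KIF18B, KIF20A, KIF20B and KIF23, and this count rests on few libraries: it was 0 without untreated library A or Ca2+-Sen day 1 library B, and 1 without untreated library B or Ca2+-Sen day 1 library A. On day 2 limma called none, against 2.55% of all genes; 4 were lower at an unadjusted p under 0.05 and 1 with voom weights. Lower members then numbered 9 on day 3 (7.35%), 9 on day 4 (10.9%), 10 on day 6 (13.6%) and 11 on day 8 (22.7%), where the median difference was -2.93. On day 6 library A held 640 and B 241 normalized counts of KIF20A.

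On Ca2+-Sen day 16 the mitotic kinesins stood well above day 8. All 11 were higher (13.2% of all genes), by a median of 1.83. KIF20A went from 240 and 203 to 778 and 801 (1.83, SE 0.50, adjusted p = 0.00783), KIF14 from 77.2 and 70.4 to 300 and 357 (2.12, SE 0.47) and KIF23 from 432 and 375 to 1111 and 1102 (1.45, SE 0.19, adjusted p = 6.7e-06). The libraries of the 2 days did not overlap in these members. Without library B of day 16 the count was 7, and KIF20A was not called (1.81, adjusted p = 0.0503), nor was it without library B of day 8 (1.71, adjusted p = 0.0755). Against untreated cells 6 of 11 were called lower on day 16 (8.09%), with a median of -0.94, but 3 without untreated library A or day 16 library A, and 4 without untreated library B or day 16 library B. Limma called none different between day 16 and day 1 (27% of all genes changed in either direction), and 1 was lower at an unadjusted p under 0.05. 

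After DXR the set stayed low throughout. All 11 mitotic members were lower than in untreated cells on each of 8 days, in 88 of 88 pairs of a member and a day, where 16.3% of all such pairs were called lower. The background was 21.6% on day 0, 14.8% on day 1, 9.58% on day 2, 10.4% on day 3, 12.5% on day 4, 18.2% on day 6, 18.1% on day 8 and 25% on day 16. The median difference was -3.78 on day 0, -4.04 on day 2, -2.74 on day 3 and -3.53 on day 16. KIF20A was at 41.2 and 52.9 on day 0, 15.9 and 19.6 on day 1, 14.2 and 46 on day 2 and 105 and 115 on day 3. The day 1 difference from untreated cells, -6.51 (SE 0.50, adjusted p = 5.43e-12), was the largest of any member in any comparison with untreated cells. KIF18B was at 4.07 and 10.6 on day 0 and at 5.31 and 6.93 on day 1 (-6.22, SE 0.34), and KIF2C at 13.9 in both libraries of day 1 (-6.07, SE 0.38). At these levels a library held few reads, so the exact size is less certain than the direction. KIF22 was at 130 and 140 on day 0 (-3.01, SE 0.19) and at 273 and 230 on day 1, where it was called higher than on day 0 (0.88, SE 0.19, adjusted p = 0.000953). KIF11 was the other member higher on day 1 (0.60, SE 0.22, adjusted p = 0.0494), against 11.8% of all genes, and its call was lost without any 1 of the 4 libraries compared (adjusted p 0.0723 to 0.296). Between days 0 and 1 the share of 2 in 11 was near the background, and the median difference was 0.00. At an unadjusted p under 0.05, 2 members were lower and 2 higher on day 1. By day 16, 4 members (KIF18B, KIF20A, KIF23 and KIF2C) were higher than on day 1 (14.5%), with KIF20A at 95.9 and 38.3. Between days 8 and 16 limma called none of 11 different (4.31% of all genes), also at an unadjusted p under 0.05.

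**Figure D3:**
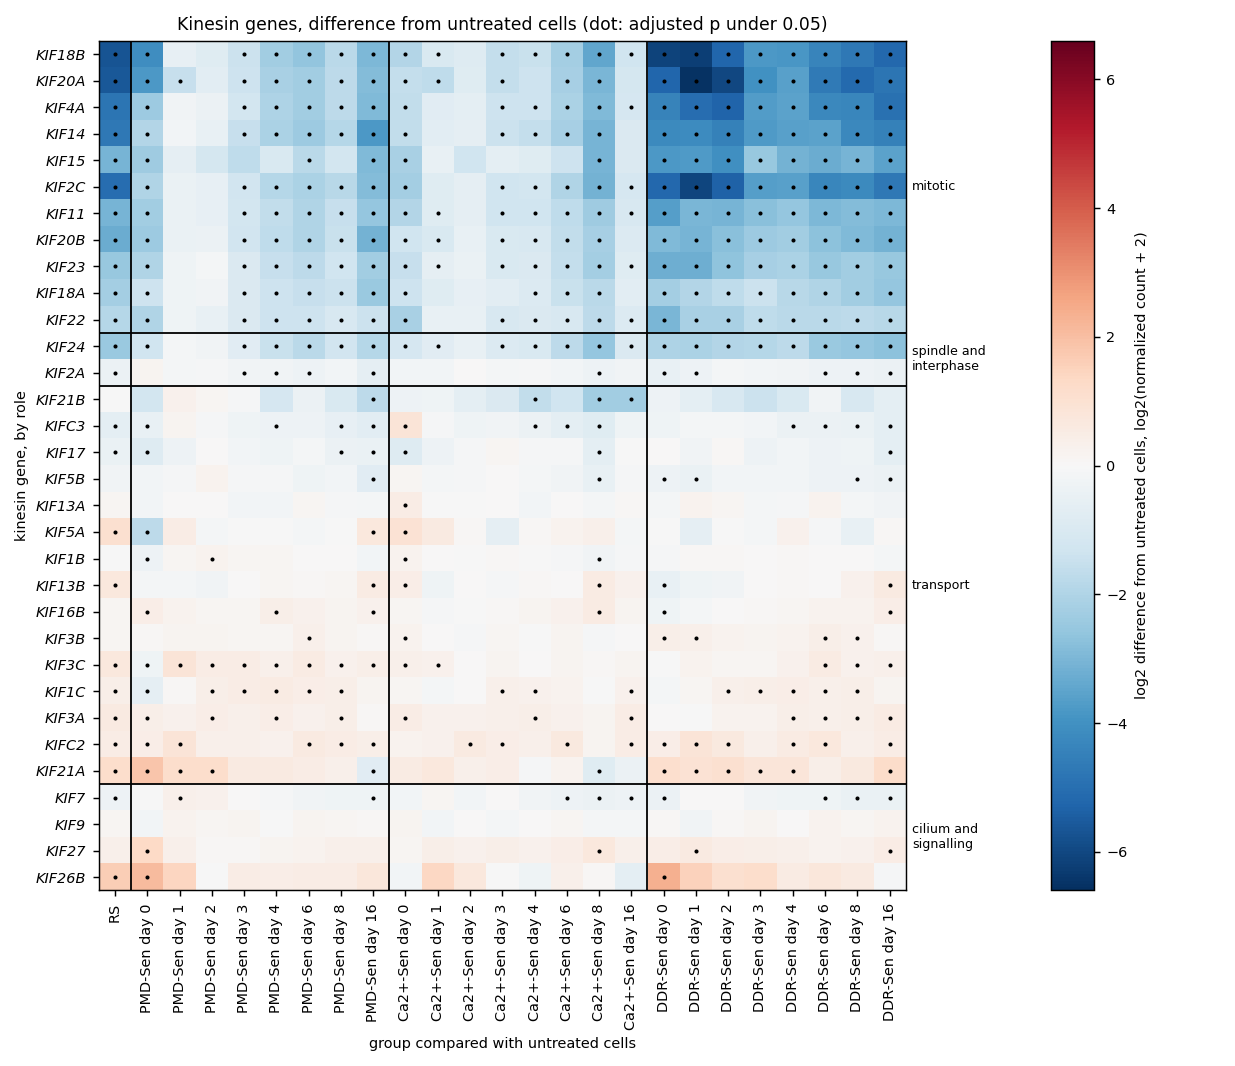
Difference of each of the 32 tested kinesin genes (rows, by role) from untreated cells on the scale of log2(normalized count + 2) in 25 groups (columns), with blue for lower, red for higher and a dot where the adjusted p was under 0.05. The mitotic rows are called lower in 224 of 275 cells and higher in none, while the transport rows are called lower in 38 of 375 and higher in 88.

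Compared directly on the same day, the mitotic kinesins were higher in PMD-Sen and in Ca2+-Sen than in DDR-Sen. PMD-Sen was higher in 61 of 88 pairs of a member and a day (8.93% of all genes and days), with 9 members on day 0 (28.3% of all genes), 11 on day 1 (18.7%), 11 on day 2 (14%), 9 on day 3 (4.19%), 3 on day 4 (0.41%), 6 on day 6 (1%), 8 on day 8 (1.48%) and 4 on day 16 (3.33%). None was lower, also at an unadjusted p under 0.05. On day 1 KIF18B differed by 5.68 (SE 0.34, adjusted p = 6.33e-14) and KIF2C, at 701 and 845 against 13.9, by 5.60 (SE 0.38, adjusted p = 5.27e-13), whereas KIF18A differed by 1.65 (SE 0.28). On day 16 the 4 that differed were KIF18B, KIF20A, KIF2C and KIF4A, and KIF11 and KIF22 were not among them. Ca2+-Sen was higher than DDR-Sen in 73 of 88 pairs (9.98%), with 11 on day 0 (29.6%), 11 on day 1 (12.2%), 11 on day 2 (5.35%), 8 on day 3 (2.6%), 10 on day 4 (1.65%), 7 on day 6 (2.77%), 4 on day 8 (9.5%) and 11 on day 16 (16.1%).

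PMD-Sen and Ca2+-Sen differed from each other in this set on 3 days, in 21 of 88 pairs (17.5% of all genes and days). On day 0, 4 of 11 were lower in PMD-Sen (31.1% of all genes): KIF18B, at 28.5 and 39.5 against 141 and 176 (-2.17, SE 0.34, adjusted p = 1.31e-06), KIF20A (-2.21, SE 0.50), KIF20B, a cytokinesis motor (-1.10, SE 0.35), and KIF23 (-0.45, SE 0.19). That share was near the background. Without library A of PMD-Sen day 0 the calls of KIF20B (adjusted p = 0.216) and KIF23 (0.461) were lost, and likewise without library B of Ca2+-Sen day 0 (0.0529 and 0.449). On day 1 (20.1% of all genes in either direction), day 2 (12.5%), day 3 (0.192%), day 4 (0.109%) and day 6 (0.199%) limma called none. At an unadjusted p under 0.05 there were 3, all lower on day 4. On day 8, 7 were higher in PMD-Sen (11.5%), and on day 16, 10 were lower (13.2%), all but KIF22. On day 16 KIF14 stood at 93.9 and 19.4 in PMD-Sen against 300 and 357 in Ca2+-Sen (-2.86, SE 0.47, adjusted p = 5.29e-05). With only the compared libraries in the fit, the calls of KIF14 on day 16 (adjusted p = 0.0638) and of KIF23 on day 0 (0.0698) were lost.

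Each inducer on day 16 was also compared with RS. Over these and the comparisons between days, 12 in all, 67 of 132 pairs of the mitotic members (50.8%) and 81 of 252 of the others (32.1%) were called, against 28.6% of all genes, so the share of the others was near the background. Limma called none different between DDR-Sen day 16 and RS, also at an unadjusted p under 0.05, with a median difference of 0.09 and 3.53% of all genes called. PMD-Sen day 16 was higher in 4 (9.12% of all genes), which were KIF18B (2.73, SE 0.34), KIF20A (2.73, SE 0.50), KIF2C (2.16, SE 0.38) and KIF4A (1.89, SE 0.38). Ca2+-Sen day 16 was higher in all 11 (15.1%), by a median of 2.36. The libraries of RS stood apart from each other. With only the libraries of PMD-Sen day 16 and RS in the fit, the 4 calls were lost (adjusted p 0.251 to 0.39). A p that misses the threshold does not show that levels were alike.

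In the main fit KIF24 and KIF2A, depolymerizing kinesins that also work outside mitosis, were lower in every comparison with untreated cells that called them. KIF24, which acts at centrioles, was lower in 22 of 25 groups. It was at 189 and 192 in untreated cells, 34.2 and 31.7 in RS (-2.46, SE 0.22, adjusted p = 6.55e-11), 166 and 187 on PMD-Sen day 1, and 26.8 and 34.7 on Ca2+-Sen day 8 (-2.57, SE 0.22). It was higher on Ca2+-Sen day 16, at 102 and 94.3, than on day 8 (1.62, SE 0.22, adjusted p = 7.59e-06). KIF2A, which trims spindle poles and also acts in interphase cells, was lower in 11 of 25 by smaller steps. It was at 1636 and 1646 in untreated cells, 1242 and 971 on PMD-Sen day 16 (-0.58, SE 0.08, adjusted p = 7.17e-07) and 1207 and 1108 on DDR-Sen day 0 (-0.50, SE 0.08). On PMD-Sen day 0, where the mitotic members fell, KIF2A was at 1850 and 1826 and was not called (0.16, SE 0.08). With total count scaling limma called it higher on that day (0.22, adjusted p = 0.0286).

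The 15 transport members that were tested moved in both directions and by less. Over the 25 comparisons they were lower in 38 of 375 pairs (10.1%) and higher in 88 (23.5%), where all genes were lower in 15.4% and higher in 15.1%. Most of their called differences were under 1 on the log2 scale. Taking all 21 members outside the mitotic set, 80 of 525 were lower (15.2%) and 96 higher (18.3%), near the shares of all genes. The higher ones include calls of KIF26B in RS and on DDR-Sen day 0, the groups whose means placed it among the measured members. When a difference of at least 1 was asked for, the counts were 23 and 12. With voom weights these counts were 47 and 54, in part because 5 members with no split into libraries in some groups (KIF1C, KIF3B, KIF5B, KIF7 and KIFC3) could not enter. Without untreated library B the lower count was 53.

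KIF1C and KIF5B, the members with the most RNA, went different ways. KIF1C was at 15180 and 16779 in untreated cells, 21100 and 21391 in RS (0.41, SE 0.08, adjusted p = 0.000507) and 10509 and 10704 on PMD-Sen day 0 (-0.59, SE 0.08, adjusted p = 8.72e-06). The RS call was lost with only the compared libraries in the fit (adjusted p = 0.0594). KIF1C was higher in 14 of the 25 groups and lower only on PMD-Sen day 0. In 14 groups its reads gave only a group mean, and the highest of these was 22860 on PMD-Sen day 4 (0.52, SE 0.08). KIF5B was at 11784 and 13479 in untreated cells and was lower in 6 groups. In PMD-Sen day 16 its libraries held 9294 and 5945 (-0.76, SE 0.13, adjusted p = 1.94e-05), in DDR-Sen day 16 9707 and 9214 (-0.41, SE 0.13) and in Ca2+-Sen day 8 8895 and 8956 (-0.50, SE 0.13). It was called higher in none of the 25 groups. Without untreated library B the calls on DDR-Sen day 16 (adjusted p = 0.115) and Ca2+-Sen day 8 (0.0511) were lost, and without library B of DDR-Sen day 16 the former was lost as well (0.0622).

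KIF5A, the neuronal heavy chain, took opposite courses at the end of the SDS and KCl treatments. It was at 60.4 and 34 normalized counts in untreated cells, 12.4 and 12.3 on PMD-Sen day 0 (-1.73, SE 0.27, adjusted p = 2.85e-06), 95.8 and 83.9 on Ca2+-Sen day 0 (0.95, SE 0.27, adjusted p = 0.00352) and 48.2 and 41.6 on DDR-Sen day 0, where it was not called. On PMD-Sen day 1 it was back at 73.3 and 56.6 (2.21 above day 0, SE 0.27, adjusted p = 3.27e-08). RS, at 74.4 and 127 (1.07, SE 0.27), and PMD-Sen day 16, at 70.2 and 78.8, were the other groups in which it rose. The untreated libraries differed widely in this gene: without B the difference was 0.55 on Ca2+-Sen day 0 (adjusted p = 0.144) and 0.67 in RS (0.0924), and without library B of RS it was 0.69 (0.0855). With only the compared libraries in the fit, the RS call was lost too (adjusted p = 0.135). KIF1A, a scarcer neuronal motor, was outside the test. It had 0 reads in both untreated libraries and 49.5 and 25.9 normalized counts on PMD-Sen day 0, 44.9 and 21.4 in RS and 31.4 and 15.9 on DDR-Sen day 16. Its mean in RS is the value that placed it among the measured members, and is given as a description. Against a floor of 3 reads per untreated library, the means on PMD-Sen day 0 and DDR-Sen day 16 were at least 6.92-fold and 4.34-fold higher. On Ca2+-Sen days it was at most 5 in a library. The neuronal marker SNAP25 ranged from 29.6 to 411 normalized counts over the group means and differed by 2.08 in RS (SE 0.25). Its part in the values of KIF5A and KIF1A was not tested.

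KIF21A, a kinesin of the kinesin-4 family that limits microtubule growth, also separated the groups at both ends of the time course. It was at 19.6 and 26 in untreated cells, 75.5 and 98.1 on PMD-Sen day 0 (1.84, SE 0.28, adjusted p = 1.56e-06), 51.1 and 52.2 on DDR-Sen day 0 (1.13, SE 0.28) and 58.3 and 49.7 in RS (1.18, SE 0.28). It then fell in PMD-Sen to 10 and 16.4 on day 16, below untreated cells (-0.73, SE 0.28, adjusted p = 0.0362), and was at 66.3 and 44.6 on DDR-Sen day 16 (1.20, SE 0.28, adjusted p = 0.000732). On Ca2+-Sen day 16 it was at 17.3 and 16.6 and was not called against untreated cells. Direct comparison on day 16 gave -1.92 for PMD-Sen minus DDR-Sen (SE 0.28, adjusted p = 2e-04) and -1.58 for Ca2+-Sen minus DDR-Sen (SE 0.28, adjusted p = 7.88e-05). Its relative KIF21B, at 11.4 and 26 in untreated cells, was lower in 4 groups (PMD-Sen day 16 and Ca2+-Sen days 4, 8 and 16), all with 9.85 or less in a library. Both genes are scarce, and the shallow untreated libraries make their differences less certain. The call of KIF21A on PMD-Sen day 16 was lost without untreated library B (-0.54, adjusted p = 0.239) and without library A of that day (-0.42, adjusted p = 0.343). With only the compared libraries in the fit, this call (adjusted p = 0.26), that in RS (0.0582) and the day 16 difference between PMD-Sen and DDR-Sen (0.402) were lost.

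**Figure D4:**
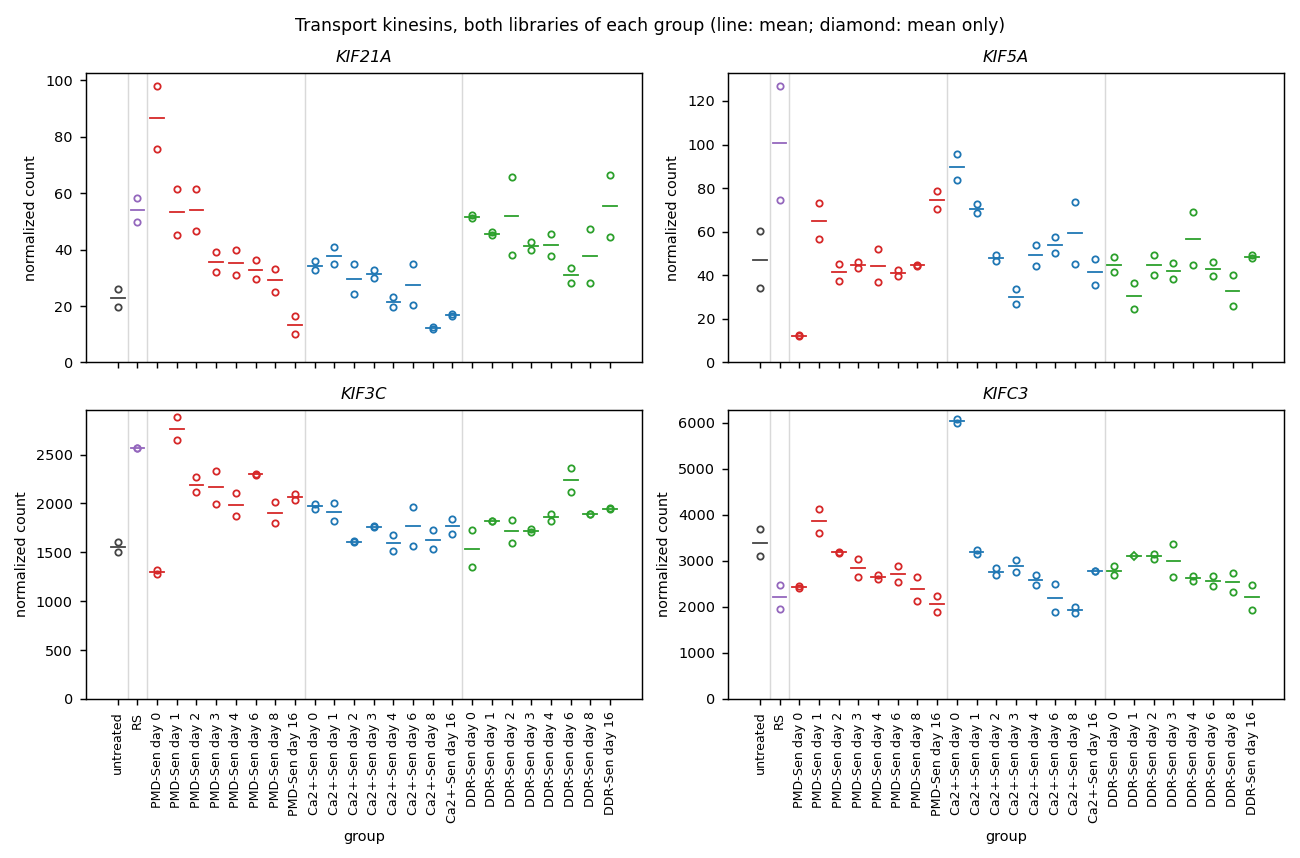
Normalized counts of 4 transport kinesins in both libraries (circles) of each group, with the mean as a line and a diamond where only the mean is known. KIF5A is at 12.4 and 12.3 on PMD-Sen day 0, and KIFC3 is at 5994 and 6079 on Ca2+-Sen day 0, apart from all other groups.

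Of kinesin II, whose KIF3A and KIF3B motors pair for transport in cilia, KIF3A was higher in 12 groups, KIF3B in 6, and neither was lower in any. KIF3A was at 712 and 808 in untreated cells and at 1092 and 1207 in RS (0.60, SE 0.13, adjusted p = 3e-04), and KIF3B at 3209 and 3612 and at 4024 and 3529 (0.15, SE 0.09), without a call. KIF3C, which pairs with KIF3A, was higher in 13 groups. It was at 1500 and 1610 in untreated cells, 2565 and 2567 in RS (0.72, SE 0.10, adjusted p = 3.83e-07), 1279 and 1321 on PMD-Sen day 0 (-0.26, SE 0.10, adjusted p = 0.0272) and 2650 and 2879 a day later (0.83, SE 0.10). Its day 0 call was lost without untreated library B (adjusted p = 0.166) or either library of day 0 (0.12 without A and 0.059 without B). The step from day 0 to day 1 was 1.09 (SE 0.10, adjusted p = 5.75e-11). KIF17, a homodimeric relative, moved down: 413 and 398 in untreated cells, 206 and 241 on PMD-Sen day 0 (-0.86, SE 0.14) and 211 and 239 on Ca2+-Sen day 0 (-0.85, SE 0.14), against 413 and 397 on DDR-Sen day 0, where it was not called.

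The minus-end directed members KIFC2 and KIFC3 parted. KIFC2 was higher in 16 of 25 groups, from 338 and 274 in untreated cells to 578 and 535 on DDR-Sen day 1 (0.87, SE 0.15, adjusted p = 3.81e-05) and 577 and 509 on PMD-Sen day 1 (0.83, SE 0.15). KIFC3, which works at cell junctions and the Golgi, was lower in 12 and higher in 1. It was at 3111 and 3688 in untreated cells, 5994 and 6079 on Ca2+-Sen day 0 (0.83, SE 0.13, adjusted p = 2.89e-06), 2410 and 2450 on PMD-Sen day 0 (-0.48, SE 0.13) and 1952 and 2470 in RS (-0.62, SE 0.13). Without untreated library B the PMD-Sen call was lost (-0.36, adjusted p = 0.0662), and with only the compared libraries in the fit that in RS was (adjusted p = 0.0502). By Ca2+-Sen day 1 it had come down to 3156 and 3241 (-0.92 from day 0, SE 0.13, adjusted p = 5.73e-07). Of the exon bases of KIFC2, 17.8% lie opposite another gene, and the strand setting of the read counting is not given in the sources used here, so reads of that neighbour may be included.

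KIF13A, which moves recycling endosomes, was called only on Ca2+-Sen day 0, at 5390 and 5616 after 4037 and 3896 (0.47, SE 0.10). KIF13B, a vesicle motor, was higher in 5 groups, among them RS, at 1533 and 2503 after 1216 and 1156 (0.72, SE 0.13), and lower on DDR-Sen day 0 (-0.50, SE 0.13). KIF16B, of early endosomes, was higher in 5 and lower on DDR-Sen day 0 (-0.30, SE 0.11). KIF1B, a motor of mitochondria and vesicles, was lower on PMD-Sen day 0 (-0.36, SE 0.08) and Ca2+-Sen day 8 (-0.23, SE 0.08) and higher on PMD-Sen day 2 (0.23, SE 0.08) and Ca2+-Sen day 0 (0.21, SE 0.08). The last 3 of these calls of KIF1B were lost without either untreated library (adjusted p 0.0546 to 0.195), that of KIF16B without either (0.0597 and 0.103) or without library A of DDR-Sen day 0 (0.146), and that of KIF13B on DDR-Sen day 0 without library B of that day (0.0653). With only the compared libraries in the fit, the calls of KIF13B in RS (adjusted p = 0.0959) and KIF16B on DDR-Sen day 0 (0.101) were lost.

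Among the cilium and signalling members, KIF7, a regulator of Hedgehog signalling at the ciliary tip, was lower in 9 groups and higher on PMD-Sen day 1. It was at 1303 and 1338 in untreated cells, 1028 and 1026 in RS (-0.36, SE 0.11) and 1710 and 1660 on PMD-Sen day 1 (0.35, SE 0.11), a call that was lost without untreated library A (adjusted p = 0.0854) or without either library of that day (0.0811 and 0.0588). With only the compared libraries in the fit, the RS call was lost (adjusted p = 0.0548). KIF27, its close relative, rose in 4 groups, most on PMD-Sen day 0, from 86.5 and 68 to 208 and 180 (1.31, SE 0.19, adjusted p = 5.01e-07), and was lower again a day later (-0.98, SE 0.19). KIF26B, which lacks motor activity and acts in WNT5A signalling, was at 4.9 and 6 in untreated cells and rose on PMD-Sen day 0, to 24.8 and 35.4 (2.09, SE 0.60, adjusted p = 0.00382). It was at 30 and 13.8 in RS and 27.3 and 45.6 on DDR-Sen day 0, the groups whose means placed it among the measured members, so these are a description. KIF9, of motile cilia, was called in none of the 25 comparisons with untreated cells by limma, also at an unadjusted p under 0.05, with 71.6 to 129 normalized counts over all libraries. Opposite-strand genes overlap 17.9% of the exon bases of KIF9, 13.1% of those of KIF27, 13% of those of KIF22 and 11.8% of those of KIF7.

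In the direct comparison of inducers the members outside the mitotic set were called in 104 of 504 pairs. That share, 20.6%, was near the 18% of all genes. On day 0 PMD-Sen minus Ca2+-Sen was -2.68 in KIF5A (SE 0.27, adjusted p = 4.31e-10), 2.27 in KIF26B (SE 0.60) and -1.31 in KIFC3 (SE 0.13, adjusted p = 4.23e-10).

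Genes whose products work with these motors were counted as lists, beside 15.4% lower and 15.1% higher over all genes in the 25 comparisons. The list of 13 tested mitotic kinesin partners was lower in 269 of 325 pairs (82.8%) and higher in 1. It holds HMMR, BIRC5, CIT and PLK1, among others, and also CENPE, which is itself a mitotic kinesin without a KIF symbol. The members counted as mitotic kinesins were lower in 224 of 275 (81.5%) and higher in 0. PLK1, the kinase that readies KIF20A and KIF23 for anaphase, fell by 4.70 in RS (SE 0.31), BIRC5 (survivin) by 5.54 (SE 0.43) and CIT, the citron kinase that binds KIF14, by 4.60 (SE 0.40). The 12 tested partners in transport were lower in 17 of 300 (5.67%) and higher in 97 (32.3%). KLC4, a kinesin light chain, was higher in 19 groups (0.88 in RS, SE 0.10), and KIFAP3, the third subunit of kinesin II, in 14 (0.47 in RS, SE 0.10). The 19 genes of dynein and dynactin, the motor that runs the other way, were lower in 36 of 475 (7.58%) and higher in 118 (24.8%), with DCTN1 higher in 20 groups. The 10 proliferation genes were lower in 192 of 250 pairs (76.8%); TOP2A was lower in 21 groups and FOXM1, a transcription factor of mitotic genes, in 24. Of their 25 higher pairs, 24 were of CDKN1A, the p21 inhibitor of cell cycle kinases, named after its values were seen.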

How the data were processed

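mRNA of 52 libraries, 2 for each of 26 groups, was sequenced as read pairs of 150 bases. The submitters' processing notes name Trim Galore, HISAT2, HTSeq, featureCounts and DESeq2 and the build GRCh38, with neither versions nor the strand setting. The authors deposited 25 distinct tables, each of a treated group against untreated cells. Their signal values are means, over the 4 libraries compared, of gene counts divided by size factors, as made by the authors. Fold changes and p-values of the authors, in the same tables, were not used.

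Whole reads per library were solved from these means (Python 3.11.15, NumPy 2.4.6, SymPy 1.14.0). In the 10 tables with full digits 100% of 39968 genes above 0 had a solution, and the untreated reads found there were then used for the 15 rounded tables. Where a split was ambiguous (KIF1C in 14 groups, KIF5B, KIF7, KIFC3 and KIF3B in 1 or 2), only the group mean entered, with the weight of 2 libraries, so its libraries add nothing to the spread. The row that names no gene was left out.

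Reads were scaled by median-of-ratios size factors over 52 libraries. Genes with a mean of at least 10 over the 26 groups (15606) were tested as log2(normalized count + 2) with limma 3.58.1 in R 4.3.3 (mean trend, 1 fit, 26 residual degrees of freedom, Benjamini-Hochberg adjustment within a comparison). The fit gives libraries equal weight whatever their depth. The methods call the libraries of a group independent samples. The p-values rest on the spread between the libraries of a group, pooled over all 26 groups in 1 fit. They do not measure the spread of the compared libraries alone. Alternatives were total count scaling, a pseudocount of 0.5, no filter, voom weights, fits of the compared libraries only, a difference of at least 1, and each library left out. One more, without values known only as a group mean, was chosen after seeing the data. The scripts were tested on simulated data.

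The members, lists and tests were chosen with earlier results of these data known. Any measured kinesin could be named. Of each other list the 5 genes with the largest median difference could be.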

Additional observations from a re-analysis of the deposited data

Results flagged for a closer look

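In 7 cases a kinesin was called higher than in untreated cells after one agent and lower after another on the same day, and the direct limma test of the difference, adjusted over all genes, passed. Each compares 2 libraries with 2. In every case 1 of the calls against untreated cells was lost when some single library was left out, as given above. It was the Ca2+-Sen call in KIF5A and KIF1B and the PMD-Sen call in KIFC3, KIF3C and KIF21A. In KIF13B and KIF16B it was the DDR-Sen call. On day 0, PMD-Sen minus Ca2+-Sen was -2.68 in KIF5A (-1.73 and 0.95 against untreated cells, SE 0.27, adjusted p = 4.31e-10), -1.31 in KIFC3 (-0.48 and 0.83, SE 0.13, adjusted p = 4.23e-10), -0.60 in KIF3C (-0.26 and 0.34, SE 0.10, adjusted p = 3.65e-06) and -0.58 in KIF1B (-0.36 and 0.21, SE 0.08, adjusted p = 2.93e-07). Also on day 0, Ca2+-Sen minus DDR-Sen was 0.94 in KIF13B (0.43 and -0.50, SE 0.13, adjusted p = 2.28e-07), and PMD-Sen minus DDR-Sen was 0.77 in KIF16B (0.46 and -0.30, SE 0.11, adjusted p = 2.96e-07). On day 16, PMD-Sen minus DDR-Sen was -1.92 in KIF21A (-0.73 and 1.20, SE 0.28, adjusted p = 2e-04). With only the compared libraries in the fit the KIF21A difference was not called (adjusted p = 0.402).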

How the results depend on the processing

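No paired analysis was possible because the recovered libraries could not be tied to the replicate numbers of the labels. Of the counts given for the mitotic members, those of RS and of days 0 and 16 of DDR-Sen and PMD-Sen kept within 1.5 times their value under every alternative, and no difference quoted for a single gene turned its direction (895 values under an alternative kept their side of the threshold, 77 lost the call and 1 gained it). The counts of lower mitotic members that moved were those of early or late days with differences near the threshold. On Ca2+-Sen day 1 (5 of 11) the count was 1 without a filter on low values, 9 with voom weights, 10 with only the compared libraries, 2 for a difference of at least 1, and 0 to 1 without single libraries. On PMD-Sen day 1 (1 of 11) it was 2 with voom, 5 with only the compared libraries and 0 to 1 without single libraries, on PMD-Sen day 2 (0) 4 and 7, on Ca2+-Sen day 2 (0) 1 and 5, and on Ca2+-Sen day 16 (6) 10 with only the compared libraries and 3 to 4 without single libraries. Members higher on Ca2+-Sen day 16 than on day 8 (11) were 7 to 11 without single libraries. The mitotic pairs between PMD-Sen and Ca2+-Sen (21) were 33 with only the compared libraries. Of the other members, 80 lower and 96 higher became 47 and 54 with voom, which could not take genes without a split, and 23 and 12 for a difference of at least 1. The 80 were 53 to 85 without single libraries. Their 104 pairs between inducers and 81 between days became 23 and 21 for a difference of at least 1. Total count scaling moved the median of all genes by -0.07 to 0.08 and gave 222 lower mitotic pairs and 79 lower and 102 higher others. It moved the share of higher among all called genes by over 10 points in 15 comparisons: PMD-Sen day 2 (62.5% to 51.5%), Ca2+-Sen day 1 (44% to 63.9%) and day 2 (51.4% to 65.6%) against untreated cells; PMD-Sen minus DDR-Sen on day 2 (60.9% to 47.4%), 3 (57.3% to 45%), 4 (51.2% to 30.7%), 6 (78.8% to 63%) and 16 (63.4% to 38%); PMD-Sen minus Ca2+-Sen on day 2 (63.5% to 37.3%) and 4 (70.6% to 45.5%); Ca2+-Sen minus DDR-Sen on day 1 (47.8% to 60.3%) and 16 (57.9% to 43.9%); Ca2+-Sen day 16 minus day 1 (52.7% to 38.8%); DDR-Sen day 16 minus day 8 (31.8% to 56.1%) and minus RS (35.4% to 68.3%). The cause of the other moves was not tested. The shallow untreated libraries limit what can be said of the scarce members KIF15, KIF21A, KIF21B, KIF26B and KIF5A.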

Other observations

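Among the members too scarce to be tested, KIFC1, a spindle motor that moves towards minus ends and is usually abundant in dividing cells, was uneven between the libraries of a group. It held 92.7 and 5.75 normalized counts in libraries A and B of Ca2+-Sen day 2. On PMD-Sen day 8 it was at 4.09 and 37, on PMD-Sen day 16 at 36.5 and 1.02, and in untreated cells at 6.53 and 0. Whether these values reflect its RNA or the counting of its reads was not tested. KIF5C, a neuronal heavy chain, was at 1.63 and 0 in untreated cells and between 1.28 and 15 in the DDR-Sen libraries.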
